A study of Mus musculus with 42 samples.

Results

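Goblet cells and Gli1-lineage stromal cells of the mouse colon were compared in control animals, in which neither Alk3 nor Smad4 had been deleted. The comparison used 8 of the 42 libraries of the series, chosen by their labels and not by any measured value. Of these, 4 libraries were Muc2-mCherry+ goblet cells from GWTM2 mice (Gli1-CreERT2;Muc2-mCherry) and 4 were tdTomato+ stromal cells from GWTT mice (Gli1-CreERT2;Rosa26-tdTomato), and each set held 2 libraries of proximal and 2 of distal colon. Per the methods of the study, mice of both sexes aged 2 to 4 months were used. All carried the Cre allele and received tamoxifen at 20 mg/ml, 100 µl per day for 5 days, and the labels give day 30 as the time. In GWTT mice the tdTomato label marks cells in which the Gli1 promoter drove Cre at the time of tamoxifen, together with their progeny, and in GWTM2 mice mCherry marks cells in which the Muc2 reporter is active. Cell type cannot be told apart from mouse line, reporter, tissue preparation or sort, which all changed with it. Whether each library came from 1 mouse or a pool is not given in the labels. By their Xist and Ddx3y reads, 2 goblet libraries were female and 2 male, whereas 3 stromal libraries were female and 1 (GWTT Proximal 1) male, so sex was not balanced between the cell types. The 2 libraries differed in sex in GWTM2 Proximal, GWTM2 Distal and GWTT Proximal and so came from different mice, while in GWTT Distal nothing separates the 2 and their spread may be technical. Proximal and distal libraries of the same number matched in sex in GWTM2, and in GWTT for number 2 but not number 1. Libraries that match may share mice, whereas the fits treated all libraries as independent, so standard errors may be too small.

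Goblet cells are secretory epithelial cells that store mucin in large granules. They build the mucus layer from MUC2, a heavily O-glycosylated gel-forming mucin, and a set of small secreted proteins. Gli1+ stromal cells lie under the epithelium, where they receive epithelial Hedgehog signals, lay down matrix, and supply Wnt, BMP and R-spondin pathway proteins to the crypt. The comparison asks which ligands, receptors, matrix genes and secretory genes each cell type expressed.

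Levels are given as deposited normalized counts rescaled to CPM (counts scaled so that each library sums to 1000000), in the order proximal 1, proximal 2, distal 1 and distal 2 wherever 4 values are listed. Depth was 15879171 to 19831119 reads in the goblet libraries and 16182827 to 16772902 reads in the stromal libraries, as recovered from the whole-read steps of the values. Replicates of a group correlated across 12444 genes at a Pearson r of 0.959 to 0.988, and goblet with stromal libraries at 0.474 to 0.577, where genes are not independent replicates. The deposited tables leave out genes with a low mean, so a gene without a row was at most 1.11 CPM in any goblet library and 1.62 CPM in any stromal library. A fold given as "at least" divides the stromal mean by the goblet mean, with a missing goblet row set to its bound and a goblet value under 3 reads set to 3 reads. Gli1 itself had no goblet row and was 38.0, 96.3, 99.6 and 83.3 CPM in stromal cells, at least 85.4-fold higher.

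Marker genes followed the sorted populations, and markers of other cell types were present in both. All 9 goblet markers were above 10 CPM in goblet cells, where they summed to 31164 to 63437 CPM against 4.77 to 382 CPM in stromal cells. All 10 fibroblast markers were above 10 CPM in stromal cells, where they summed to 42899 to 52462 CPM against 14.1 to 21.1 CPM in goblet cells. The labels give the tissue of the stromal libraries as intestinal epithelium, but the 10 epithelial markers summed to 26.5 to 672 CPM there and to 14209 to 15589 CPM in goblet cells. Among the stromal libraries GWTT Proximal 1 had the lowest and GWTT Proximal 2 the highest sum of goblet markers. Igha, Igkc and Jchain, which encode the IgA heavy chain, the kappa light chain and the joining chain of plasma cells, took 1% to 2.78% of the stromal libraries and at most 9.63e-05% of a goblet library. In stromal libraries the 7 smooth muscle and myofibroblast markers summed to 336 to 1046 CPM and the 8 myeloid markers to 178 to 549.7 CPM, with 6 of each list above 10 CPM. In goblet libraries the 9 absorptive colonocyte markers summed to 635 to 7981 CPM, and all 9 were above 10 CPM. The part of these other cells in the results below was not tested, and fewer cells of a type cannot be told apart from less RNA per cell.

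**Figure D1:**
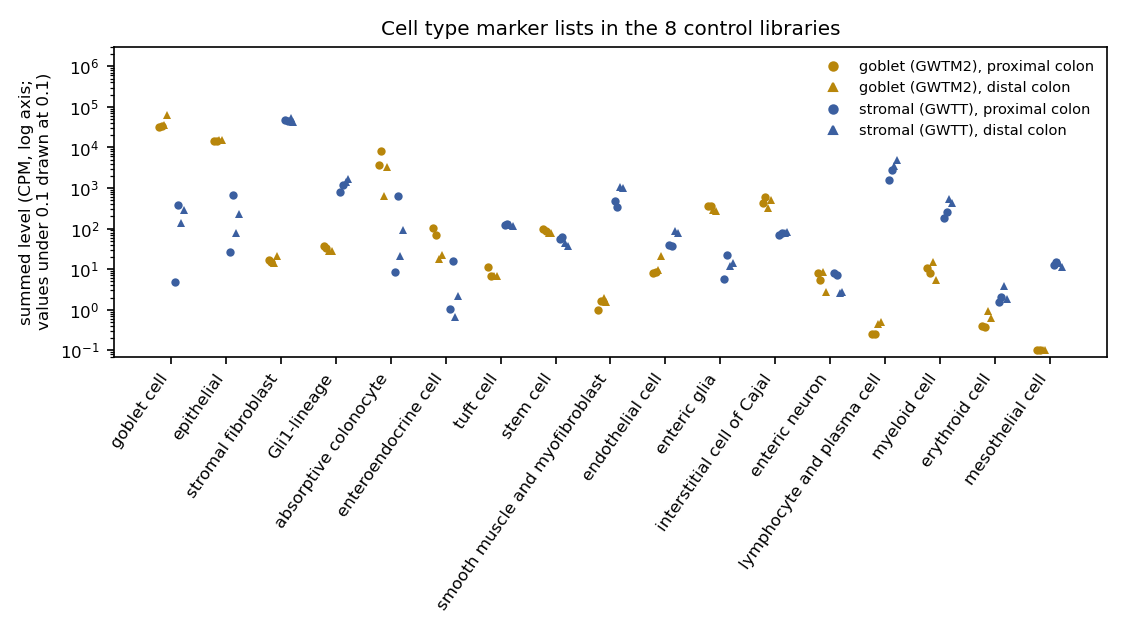
Summed level of each marker list (CPM, log axis) in the 4 goblet (GWTM2) and 4 stromal (GWTT) libraries, 1 point per library, circles for proximal and triangles for distal colon, with a gene without a row counted as 0 and sums under 0.1 drawn at 0.1. The goblet list lies at 31164 to 63437 CPM in goblet libraries and the fibroblast list at 42899 to 52462 CPM in stromal libraries, where lymphocyte and plasma cell markers reach 4818 CPM.

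Of 12444 genes with a row in all 4 tables and a mean of at least 1 CPM, 5306 (42.6%) differed between the cell types by limma with an adjusted p (Benjamini-Hochberg) below 0.05 together with a log2 difference of 1 or more, on the log2(CPM + 1) scale, which understates the change of low genes. Of the genes tested, 3076 (24.7%) were higher in goblet cells and 2230 (17.9%) in stromal cells. The 4 goblet and 4 stromal values did not overlap in 5200 of the called genes, and in 70.6% of all genes tested. A further 2150 genes had a row in both stromal tables and in neither goblet table, against 847 the other way. With a missing row taken as 0, 50.3% of 14463 genes were called, and 3405 genes (23.5%) were higher in goblet cells and 3875 (26.8%) in stromal cells. The share of calls that were higher in goblet cells was 58% as tested, 46.8% with missing rows as 0, 50.4% under TMM (trimmed mean of M-values) scaling and 47.2% under upper-quartile scaling. The median log2 difference of all tested genes was 0.21, and 0.0082 under TMM, so differences are read relative to that shift.

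**Figure D2:**
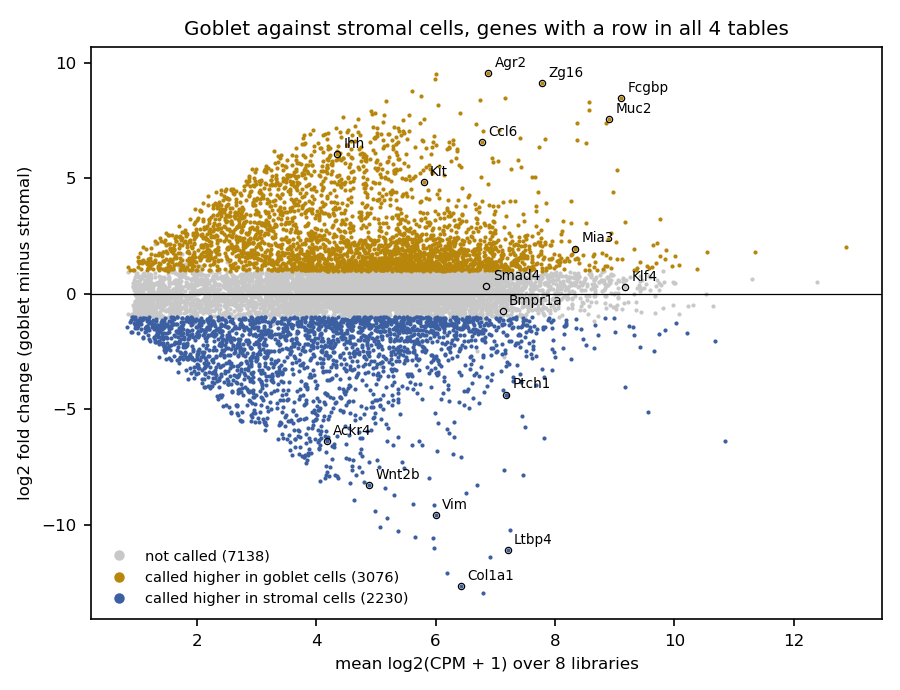
Log2 difference (goblet minus stromal) against the mean log2 level of the 12444 tested genes, 1 point per gene, gold for the 3076 called higher in goblet cells, blue for the 2230 called higher in stromal cells and grey for the rest. Agr2 lies near the top at 9.55, Col1a1 near the bottom at -12.64.

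Among the tested genes, which have a row in all 4 tables, the 12 largest differences in the goblet direction were Agr2, Spink4, Cd177, Zg16, Retnlb, Fcgbp, Klk1, Oit1, Muc4, Clca1, Tff3 and Pigr, with log2 differences from 7.93 to 9.55. The 12 largest of the tested genes in the stromal direction were Igha, Col1a1, Igkc, Fn1, Ltbp4, Svep1, Col4a1, C4b, Col4a2, C3, Axl and Nid1, from -9.71 to -12.95. Genes without a goblet row, such as several collagens, are given below by their bounds and were not ranked. Igha and Igkc are plasma cell genes, C3 and C4b encode complement components, and AXL is a receptor tyrosine kinase. Epcam, an epithelial adhesion gene, was 1743, 1743, 1873 and 1679 CPM in goblet cells and 3.12, 64.0, 8.94 and 26.0 CPM in stromal cells, with no overlap (log2 difference 6.75 ± 0.76, SE). Vim, which encodes the mesenchymal filament vimentin, was 0.68 to 2.46 CPM in goblet and 1465 to 2323 CPM in stromal cells (-9.57 ± 0.12).

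Goblet cells put 3.66% to 6.83% of their reads into the 17 genes with a row among 19 secreted goblet products. In stromal libraries the same genes took 0.000777% to 0.0413%. All 13 tested members were called higher in goblet cells, beside 24.7% of all tested genes, and 2 more had rows in both goblet tables and no stromal table. The median log2 difference of the tested members was 8.31 against 0.21 over all genes. Muc2, the gel-forming mucin, was 9908, 12374, 2429 and 6270 CPM in goblet cells. The stromal libraries held 3.61, 161, 28.3 and 67.7 CPM, so the groups did not overlap (7.55 ± 1.05, limma adjusted p = 0.000242). Both proximal goblet values of Muc2 were above both distal ones. Fcgbp, a protein of the mucus gel, was 5714, 6701, 11058 and 27740 CPM in goblet cells, where both distal values were above both proximal ones, and 0.0612, 108, 51.6 and 120.3 CPM in stromal cells (8.47 ± 1.26). Per kilobase of exon the highest goblet product was the lectin Zg16 at 4470 CPM per kb, followed by Spink4 at 3733, the kallikrein Klk1 at 2653, the disulfide isomerase Agr2 at 2556 and the trefoil peptide Tff3 at 2447. On the same scale Muc2 stood at 1087 CPM per kb. The scale divides by all annotated exon bases, 7127 for Muc2 and 1257 for Zg16. Whether reads rose with transcript length in these libraries was not tested.

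Promoters of 9 of the 19 secreted products and 8 of the 11 fibrillar collagens were found in RefSeq's promoter table (GRCm38.p6). The stretches shown are the 100 bases before the RefSeq start of 2 abundant members of each list, because these lists lay at opposite ends of the comparison. Capitals mark the letters TATAA where they occur on the gene's strand within 40 bases before the start. The stretch of Muc2 is chr7:141690240-141690339, Fcgbp is chr7:28071136-28071235, Col1a2 is chr6:4505518-4505617 and Col3a1 is chr1:45311438-45311537, all on the plus strand.
Muc2: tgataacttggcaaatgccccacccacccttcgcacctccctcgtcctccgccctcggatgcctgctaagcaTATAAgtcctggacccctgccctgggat
Fcgbp: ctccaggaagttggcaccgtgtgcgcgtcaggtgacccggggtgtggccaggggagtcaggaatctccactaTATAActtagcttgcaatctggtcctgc
Col1a2: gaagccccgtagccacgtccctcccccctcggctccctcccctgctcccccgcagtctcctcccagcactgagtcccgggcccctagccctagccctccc
Col3a1: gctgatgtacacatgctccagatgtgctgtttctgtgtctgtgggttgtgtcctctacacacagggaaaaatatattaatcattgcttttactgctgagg
The letters began 28 bases before the start in both Muc2 and Fcgbp and were not found in this window of Col1a2 and Col3a1. They occurred in 4 of 9 secreted products, 0 of 8 fibrillar collagens and 4.59% of all 27025 promoters. Among genes called higher in goblet cells the share was 3.77%, and among genes called higher in stromal cells 2.94%. The letters and window were chosen after the sequences were seen, and a match is a description only. The search took these exact letters only, and the Col3a1 stretch holds tatatta within the same window. The annotation used for exon lengths starts Col1a2 at 4504814, upstream of the RefSeq start used here.

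Mucin-type O-glycosyltransferases, the enzymes that add sugar chains to mucins, were mostly higher in goblet cells: 18 of 23 tested, against 3 higher in stromal cells. Of all tested genes 24.7% were called higher in goblet and 17.9% in stromal cells. Galnt7, one of the enzymes that start or extend O-glycans, was 579.9 to 646 CPM in goblet and 18.7 to 25.4 CPM in stromal cells (4.77 ± 0.09). C1galt1, which builds the core 1 structure, was higher by 2.73 ± 0.10, and Fut2, which adds terminal fucose, by 7.54 ± 0.42. Galnt2 took the opposite direction, at 48.3 to 69.5 CPM in goblet and 245 to 327 CPM in stromal cells (-2.22 ± 0.15). The sialyltransferase St3gal1 (-3.68 ± 0.46) and Galnt11 (-1.01 ± 0.10) were also higher in stromal cells, and the Galnt11 call was lost without any 1 of 4 libraries (GWTM2 Proximal 2, GWTM2 Distal 2, GWTT Proximal 1 or GWTT Distal 1), with values of -0.996, -0.98, -0.99 and -0.96, and also with a pseudocount of 5 (-0.90) and in proximal colon alone (-0.93). Of 4 tested membrane mucins 3 were higher in goblet cells, Muc13 (7.10 ± 0.72), Muc4 (8.32 ± 0.51) and Muc3 (5.52 ± 1.07), and Muc3 lost its call in proximal colon alone (5.30, limma adjusted p = 0.0573). Muc1, the other tested member, overlapped at 1.57 to 22.8 against 3.64 to 6.54 CPM and was not called.

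Of 17 secretory and intestinal transcription factors, all tested, 15 were higher in goblet cells, beside 24.7% of all tested genes. Creb3l1, a membrane-bound factor of secretory cells, was 629.7 to 822 CPM in goblet and 34.4 to 109 CPM in stromal cells (3.58 ± 0.25). The epithelial factor Ehf (7.37 ± 0.69) and the nuclear receptor Hnf4a (6.55 ± 0.83) averaged 690.2 and 604 CPM in goblet cells, against 5.38 and 10.5 CPM. Klf4, a factor of goblet cell maturation, was 511, 517, 709 and 879 CPM in goblet and 662, 449, 441 and 582 CPM in stromal cells. Its ranges overlapped and its log2 difference of 0.28 ± 0.20 was not called (limma adjusted p = 0.227). Its sign turned to -0.0265 under upper-quartile scaling and -0.0854 in proximal colon alone. Of 17 mesenchymal factors, 13 had rows in both stromal tables and in neither goblet table, beside 11.9% of all 18027 genes with a row. Tcf21 (351 to 709 CPM), Zeb2 (423 to 551 CPM) and the Hedgehog-responsive forkhead factor Foxf1 (182 to 357 CPM) were at least 559-fold, 528-fold and 289.8-fold higher in stromal cells. Snai1 was higher in stromal cells (-5.41 ± 0.19), and Gata6 was the 1 factor of this list called higher in goblet cells, at 73.4 to 91.3 against 4.83 to 11.6 CPM (3.21 ± 0.27).

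Of 21 tested endoplasmic reticulum enzymes and stress sensors, 7 were higher in goblet cells, 1 was higher in stromal cells and 13 were not called, against 42.6% of all tested genes called. Hspa5, the main luminal chaperone, was 1534, 860.4, 1880 and 874 CPM in goblet and 1302, 806, 633 and 851 CPM in stromal cells, overlapping (0.48 ± 0.31, limma adjusted p = 0.192). The disulfide isomerase Pdia3 was higher in goblet cells (1.51 ± 0.13). Txndc5 (1.16 ± 0.16) and the chaperone Calr (1.11 ± 0.17) went to 0.95 and 0.89 under TMM scaling and lost their calls, as they did under upper-quartile scaling (0.86 and 0.80), by edgeR and by DESeq2. Txndc5 also lost it in distal colon alone (0.79) and Calr in proximal colon alone (0.91). Dnajb9, a co-chaperone of HSPA5, was higher in stromal cells, at 70.1 to 118 against 30.1 to 37.7 CPM (-1.40 ± 0.15).

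Among 13 COPII genes, which build the vesicles that leave the endoplasmic reticulum, limma called 4 higher in goblet cells and 0 in stromal cells, the same at an unadjusted p under 0.05. By edgeR and by DESeq2 the counts were 1 and 0. Of all tested genes limma called 24.7% higher in goblet and 17.9% in stromal cells. Mia3, which encodes the TANGO1 receptor for bulky cargo such as collagen, was 506 to 743 CPM in goblet and 151 to 184 CPM in stromal cells (1.95 ± 0.11). Sec31a (0.40 ± 0.08), Sar1a (-0.66 ± 0.08) and Sec24d (-0.40 ± 0.08) were not called. Among collagen folding enzymes 8 of 9 tested were higher in stromal cells, and 3 more had stromal rows only. Serpinh1, the collagen chaperone HSP47, was 1834, 1108, 1438 and 1137 CPM in stromal cells, at least 2129-fold higher, and the collagen prolyl hydroxylase P3h3 was higher in stromal cells (-7.43 ± 0.16).

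**Figure D3:**
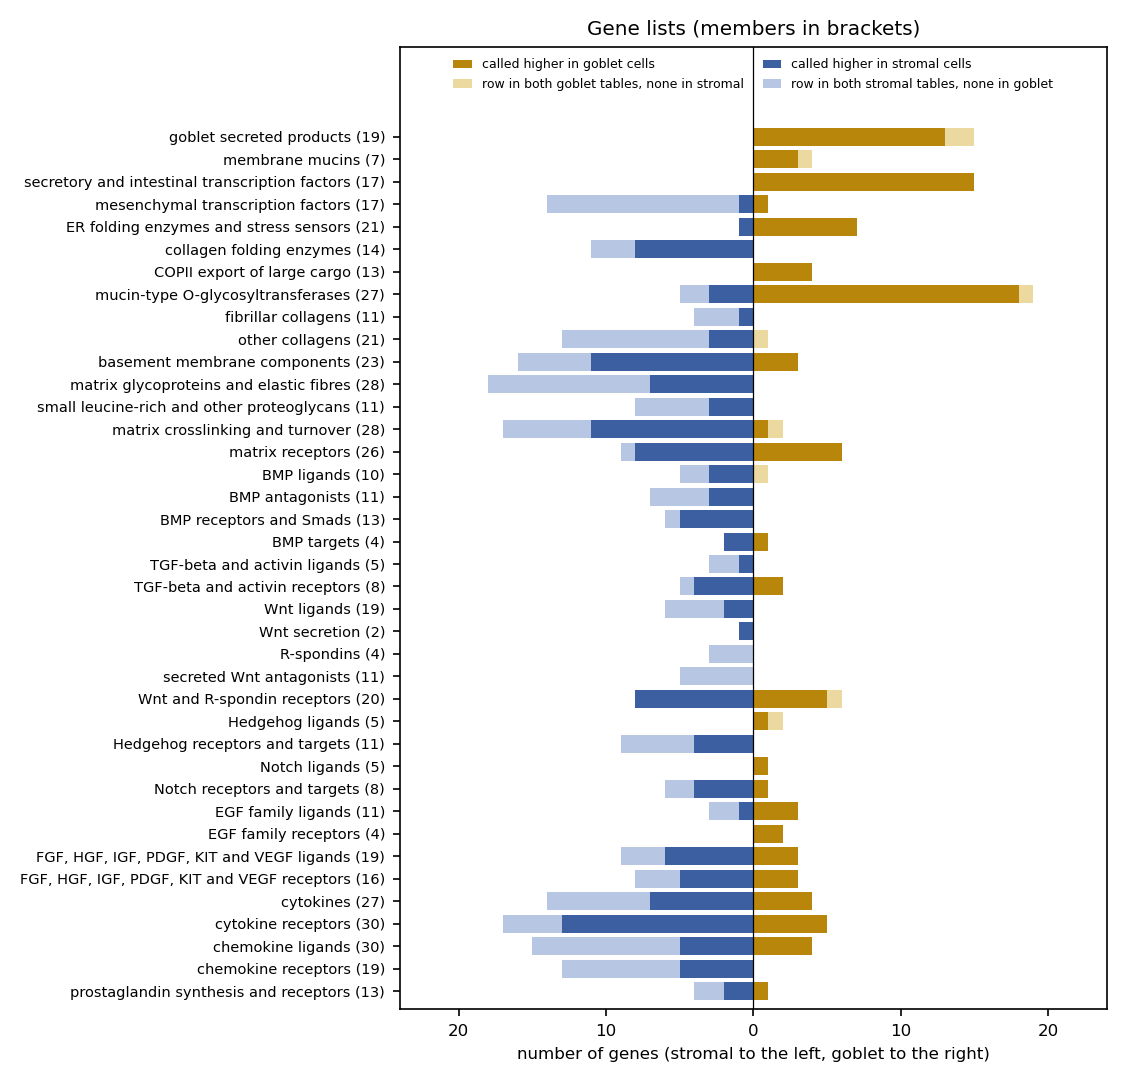
Number of members of each gene list called higher in goblet cells (gold, to the right) or stromal cells (blue, to the left), with members that had rows in both tables of 1 cell type and none of the other added in the pale shade and the size of each list in brackets. Secreted products (13 called) and glycosyltransferases (18 called) lie on the goblet side, and all 5 tested chemokine receptors lie on the stromal side.

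Stromal cells spent 11.5% to 13.7% of their reads on the 92 genes with a row in 5 structural matrix lists. The goblet libraries spent 0.0954% to 0.133%. Col3a1, a fibrillar collagen, was 15078, 13325, 22626 and 18157 CPM in stromal cells and 0.151 and 0 CPM in proximal goblet cells, with no distal goblet row, at least 27371-fold higher. Col1a1 was 6141 to 8776 CPM against 0 to 0.283 CPM (-12.64 ± 0.13). Col1a2 and Col5a1 were at least 13768-fold and 3202-fold higher, and the microfibrillar Col6a1, at 3075 to 4236 CPM, at least 3930-fold. The proteoglycan gene Dcn was 11223, 10790, 5803 and 6036 CPM in stromal cells, where both proximal values were above both distal ones. Fibronectin (Fn1) was 5248 to 7602 against 0.504 to 4.32 CPM (-11.37 ± 0.27), and Ltbp4, which ties latent TGF-beta to the matrix, was 6350 to 7214 against 1.01 to 2.83 CPM (-11.08 ± 0.19). Per kilobase of exon Col3a1 led these genes in stromal cells at 1762 CPM per kb, followed by Dcn at 1450, Ltbp4 at 1066, Col1a1 at 1062 and Sparc at 1041.

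Basement membrane genes were mostly higher in stromal cells. Of 15 tested members 11 were higher in stromal and 3 in goblet cells, beside 17.9% and 24.7% of all tested genes. The stromal side held Col4a1 (1784 to 3179 against 0.101 to 1.501 CPM, -10.55 ± 0.23), the perlecan gene Hspg2 (-4.03 ± 0.23), the laminin gamma 1 chain Lamc1 (-7.62 ± 0.19) and the laminin beta 1 chain Lamb1 (-8.62 ± 0.57). The laminin alpha 5 chain Lama5 was called higher in stromal cells too, at 23.5 to 147 against 5.45 to 7.12 CPM. The goblet side included Lamb3 and Lama3, which encode laminin beta and alpha chains of epithelial basement membranes. Lamb3 was 57.4, 94.7, 65.3 and 138 CPM in goblet and 0.612, 12.8, 1.37 and 2.09 CPM in stromal cells (4.57 ± 0.64). Lama3 was higher in goblet cells too, at 8.06 to 14.7 against 0.856 to 4.05 CPM (1.85 ± 0.22).

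Among 20 tested matrix receptors 6 were higher in goblet and 8 in stromal cells, beside 24.7% and 17.9% of all tested genes. In proximal colon alone the order turned, with 9 higher in goblet and 8 in stromal cells. Itga6 and Itgb4, which pair as the hemidesmosome integrin, were 338 to 434 and 337 to 451 CPM in goblet cells and 3.55 to 14.4 and 3.61 to 15.1 CPM in stromal cells (5.20 ± 0.34 and 5.41 ± 0.33). Itga3 (4.97 ± 0.22), Itga2 (3.28 ± 0.17), Itgb6 (3.85 ± 0.31) and the collagen receptor Ddr1 (1.45 ± 0.08) were the other goblet-high receptors. The related collagen receptor Ddr2 was 834 to 945 CPM in stromal cells, at least 1369-fold higher. Itgb1, the shared integrin beta chain, was higher in stromal cells (-1.64 ± 0.12), and the dystroglycan gene Dag1 was not called, at 345 to 374 against 416 to 516 CPM (-0.37 ± 0.08). In matrix crosslinking and turnover 11 of 12 tested genes were stromal-high, among them Timp2 (-6.23 ± 0.49) and the gelatinase Mmp2 (-9.14 ± 0.16). The exception was the membrane-type protease Mmp15 at 206 to 246 against 2.88 to 5.81 CPM (5.38 ± 0.19).

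The Hedgehog ligand Ihh was higher in goblet cells and the receptors Ptch1 and Smo in stromal cells, although goblet cells also held reads of both receptors. Ihh, the main colonic ligand, was 149.7, 218, 139 and 166 CPM in goblet cells and 0.122, 6.49, 0.775 and 1.67 CPM in stromal cells (6.05 ± 0.52, limma adjusted p = 1.28e-05). Its highest stromal value was in GWTT Proximal 2, which also held the most goblet marker RNA. Of 11 receptors and targets 6 were tested, of which 4 were higher in stromal and 0 in goblet cells by limma, by limma at an unadjusted p under 0.05, by edgeR and by DESeq2, and the other 5 had stromal rows only. The limma shares over all tested genes were 17.9% and 24.7%. The receptor and target gene Ptch1 was 383, 668, 751 and 969 CPM in stromal and 36.3, 33.4, 27.7 and 27.5 CPM in goblet cells (-4.36 ± 0.25). The signal transducer Smo was 147 to 166 against 41.4 to 47.0 CPM (-1.80 ± 0.07). Hhip, a decoy receptor that Hedgehog itself induces, was 162 to 235 CPM and at least 209-fold higher. Disp1, which releases the ligand from cells, was not called, at 16.6 to 20.9 in goblet and 22.6 to 30.1 CPM in stromal cells (-0.41 ± 0.12).

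BMP ligands were mainly stromal. Bmp4 was 481, 490.1, 833 and 823 CPM and Bmp5 86.2, 83.4, 258 and 246 CPM in stromal cells, at least 707-fold and 181-fold higher than in goblet cells. Bmp6 was 107, 176, 394 and 354 CPM (-7.13 ± 0.34) and Bmp2 94.3, 76.9, 176 and 173 CPM (-3.34 ± 0.11). In each of these 4 ligands both distal stromal values were above both proximal ones. The antagonist Grem1 ran the other way, at 919, 939, 284 and 231 CPM in stromal cells and 0 and 0 CPM in proximal goblet cells, at least 939-fold higher. Of 12 tested BMP receptors and Smads limma called 5 higher in stromal and 0 in goblet cells, the same at an unadjusted p under 0.05, and edgeR and DESeq2 each called 6 and 0. Over all tested genes limma called 17.9% higher in stromal and 24.7% in goblet cells. Bmpr1a, which encodes ALK3, was 108, 118, 93.7 and 107 CPM in goblet and 166, 185, 179.5 and 189 CPM in stromal cells, without overlap, and its difference of -0.75 ± 0.08 was under the size limit. It reached -1.05 and was called under upper-quartile scaling. Smad4, the shared Smad, was 112, 98.2, 159 and 154 against 94.9, 101, 109 and 105 CPM, with overlap (0.32 ± 0.10, not called). Bmpr2 (-1.68 ± 0.09) and Acvrl1, which encodes ALK1 (-5.62 ± 0.22), were stromal-high. Of the inhibitor-of-differentiation genes, which BMP induces, Id1 was 88.7 to 122 CPM in goblet and 18.5 to 49.2 CPM in stromal cells (1.72 ± 0.19), while Id3 (-2.65 ± 0.32) and Id2 (-2.94 ± 0.21) were higher in stromal cells.

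**Figure D4:**
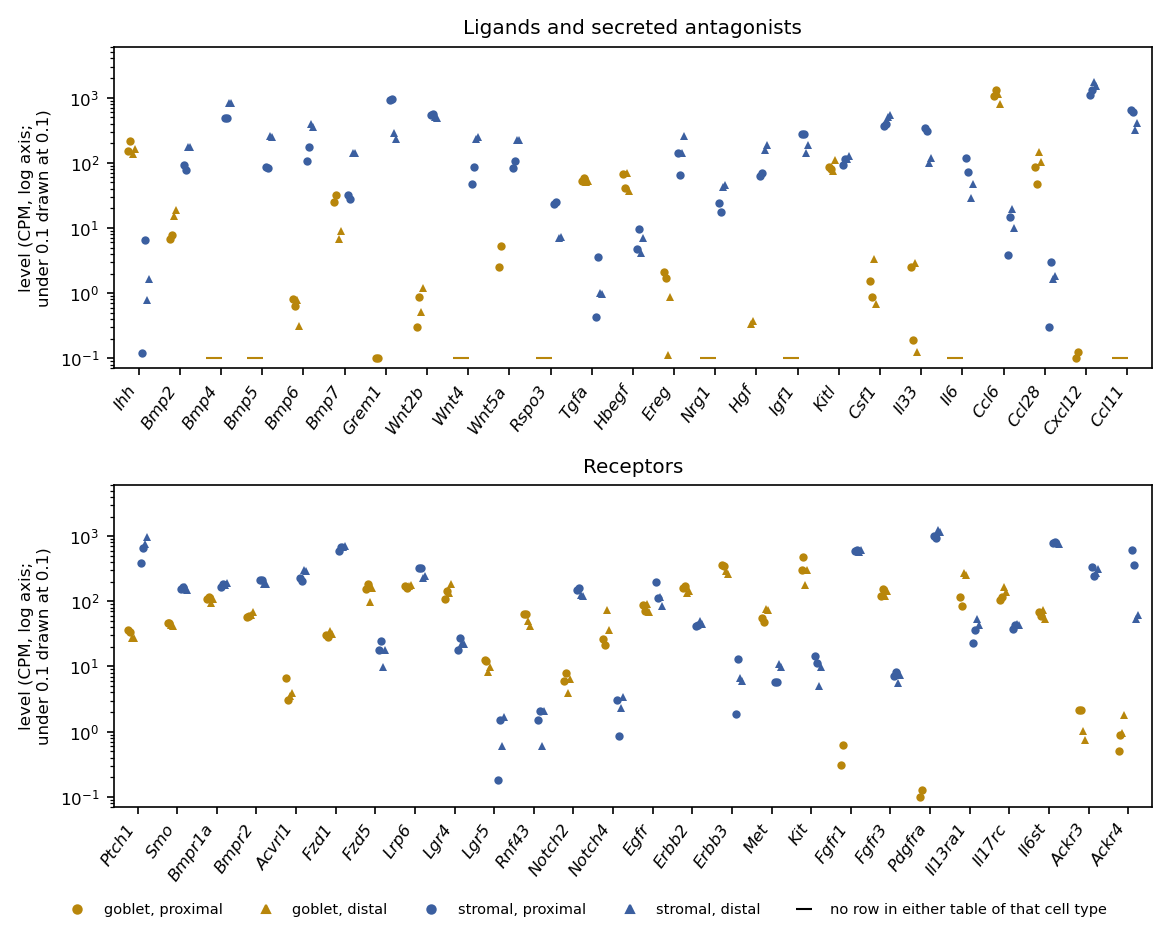
Level (CPM, log axis, values under 0.1 drawn at 0.1) of ligands and secreted antagonists (upper panel) and receptors (lower panel), 1 point per library, gold for goblet and blue for stromal cells, circles for proximal and triangles for distal colon, with a dash for a gene with no row in either table of that cell type. Ihh and Ccl6 are goblet-high, Bmp4 and Cxcl12 stromal-high, and Bmpr1a lies at 93.7 to 118 and 166 to 189 CPM.

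TGF-beta ligands were more abundant in stromal cells: Tgfb3 and Tgfb2, at 88.9 to 149.5 and 80.7 to 101 CPM, had no goblet row, and Tgfb1 was 30.6 to 63.9 against 6.004 to 17.4 CPM (-2.18 ± 0.29). The type II receptor Tgfbr2 was 762 to 916 in stromal and 90.4 to 144 CPM in goblet cells (-2.82 ± 0.15). The activin type I receptors Acvr1b (1.25 ± 0.11) and Acvr1c (3.97 ± 0.24) were the 2 of 7 tested receptors and Smads called higher in goblet cells, and Acvr1b lost its call under upper-quartile scaling (0.95). Of all tested genes 24.7% were called higher in goblet cells.

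Wnt ligands were called in stromal cells. Of 19 ligands 2 were tested, both stromal-high, and with a missing row taken as 0 limma called 10 in stromal and 0 in goblet cells. Under that rule 26.8% of all genes were called higher in stromal and 23.5% in goblet cells. Wnt2b was 482 to 564 CPM in stromal and 0.303 to 1.19 CPM in goblet cells (-8.28 ± 0.17). Wnt4 was 47.4, 87.4, 232 and 248 CPM and Wnt5a 82.6, 106, 220.5 and 221 CPM in stromal cells, at least 166-fold and 63.1-fold higher, and in both genes the distal values were above the proximal ones. R-spondins, which amplify Wnt signals at the crypt, had no goblet rows, and Rspo3 was 23.6, 25.4, 6.98 and 7.27 and Rspo1 7.52, 17.7, 7.75 and 7.99 CPM in stromal cells. Per kilobase of exon the secreted antagonists Sfrp1 and Dkk3 stood at 220.2 and 149 CPM per kb in stromal cells, and Rspo3 and Rspo1 at 5.11 and 5.28.

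Of 18 tested Wnt and R-spondin receptors 8 were stromal-high and 5 goblet-high, beside 17.9% and 24.7% of all tested genes. Fzd1 was 590.3 to 706 CPM in stromal and 28.1 to 35.2 CPM in goblet cells (-4.37 ± 0.08). Fzd5 was 99.2 to 181 CPM in goblet and 9.96 to 24.8 CPM in stromal cells (3.04 ± 0.22), and Fzd6 differed by 3.00 ± 0.25. The R-spondin receptors Lgr4 (2.59 ± 0.18) and Lgr5 (8.16 to 12.6 against 0.183 to 1.67 CPM, 2.61 ± 0.29) and the receptor-clearing ligase Rnf43 (4.46 ± 0.21) were goblet-high too. The coreceptor Lrp6 was not called, at 158 to 178 against 231 to 328 CPM (-0.72 ± 0.11), and passed at -1.02 under upper-quartile scaling. In the Notch pathway 1 of 4 tested ligands was called, Dll4 at 30.8 to 51.6 CPM in goblet and 0.989 to 4.47 CPM in stromal cells (3.65 ± 0.25). The ligands Jag1 (28.0 to 34.5 against 20.2 to 46.5 CPM), Jag2 (3.19 to 6.001 against 2.51 to 8.17 CPM) and Dll1 overlapped and were not called. Of 6 tested receptors and targets 4 were stromal-high and 1 goblet-high, and Notch1 was not called (28.6 to 51.2 against 26.2 to 43.3 CPM). The receptor Notch4 was goblet-high (3.48 ± 0.32), and the receptor Notch2 (-4.33 ± 0.15) and the target Hes1 (-2.03 ± 0.12) were stromal-high.

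Among EGF family ligands 3 of 7 tested were goblet-high and 1 was stromal-high, beside 24.7% and 17.9% of all tested genes. Tgfa was 51.6 to 59.1 CPM in goblet and 0.428 to 3.65 CPM in stromal cells (4.61 ± 0.33), and Hbegf 37.6 to 69.2 against 4.17 to 9.52 CPM (2.90 ± 0.29). The epiregulin gene Ereg was 139.7, 65.4, 140.1 and 255 CPM in stromal and 0.113 to 2.12 CPM in goblet cells (-6.05 ± 0.46), and the neuregulin gene Nrg1 was 17.8 to 46.4 CPM in stromal cells with no goblet row. Erbb3, a neuregulin receptor, was 266 to 366 CPM in goblet and 1.83 to 13.2 CPM in stromal cells (5.54 ± 0.43), and Erbb2, its partner, was higher in goblet cells by 1.74 ± 0.10. Egfr was not called, at 68.0 to 91.8 against 84.5 to 196 CPM, with overlap (-0.61 ± 0.22).

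Other receptor tyrosine kinases and their ligands were split as well. Hgf was 62.8, 70.4, 159.9 and 191 CPM in stromal cells, at least 216-fold higher, and its receptor Met was goblet-high at 47.5 to 76.7 against 5.75 to 11.0 CPM (2.83 ± 0.10). Kit was 302, 472, 178 and 299 CPM in goblet and 14.3, 11.4, 5.01 and 9.72 CPM in stromal cells (4.81 ± 0.24), whereas its ligand Kitl was 74.4 to 109 and 94.3 to 129.5 CPM and was not called (-0.37 ± 0.13). Fgfr3 was goblet-high (4.06 ± 0.13). Fgfr1 and the fibroblast receptor Pdgfra, at 562 to 618 and 925 to 1232 CPM in stromal cells, were at least 762-fold and 1701-fold higher. Pdgfa (1.60 ± 0.12) and Fgf1 (1.42 ± 0.22) were higher in goblet cells, and Fgf1 went to 0.89 and lost its call in proximal colon alone. Pdgfb was called at 1.00 ± 0.37 although its values overlapped. It lost its call in distal colon alone (0.18, limma adjusted p = 0.667), with a pseudocount of 5 (0.58), under TMM and upper-quartile scaling (0.83 and 0.76), and by edgeR and DESeq2 (0.95 and 0.97). It was also lost without GWTM2 Proximal 1, GWTM2 Proximal 2, GWTT Proximal 1, GWTT Proximal 2 or GWTT Distal 2 (0.92, 0.76, 0.77, 0.91 and 0.997). Igf1, at 141 to 281 CPM in stromal cells, had no goblet row. Vegfa was stromal-high (-1.09 ± 0.20), a call lost without GWTM2 Distal 2 (-0.88) or GWTT Distal 1 (-0.99), with a sex block (-0.97) and in proximal colon alone (-0.94).

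Of 14 tested cytokines 7 were stromal-high and 4 goblet-high, beside 17.9% and 24.7% of all tested genes. A further 7 of the 27 members had stromal rows only. Csf1, the macrophage growth factor, was 362 to 546 CPM in stromal and 0.688 to 3.40 CPM in goblet cells (-7.51 ± 0.27). Il33, an alarmin, was 341, 305, 99.9 and 120 CPM in stromal and 0.125 to 2.89 CPM in goblet cells (-6.51 ± 0.52), and both proximal stromal values were above both distal ones. Il6 was 118, 71.8, 29.2 and 46.9 CPM in stromal cells with no goblet row. The goblet-high members were Tnfsf13, which encodes APRIL (1.99 ± 0.14), the interleukin 1 antagonist Il1rn (2.08 ± 0.33), Il18 (1.71 ± 0.28) and Tnfsf10 (1.07 ± 0.31). Tnfsf10 lost its call under TMM and upper-quartile scaling (0.87 and 0.79), with a pseudocount of 5 (0.77), by edgeR and DESeq2 (0.92 and 0.94), in distal colon alone (0.80), and without GWTM2 Proximal 1, GWTM2 Distal 1 or GWTT Proximal 1 (0.95, 0.92 and 0.79). Of 24 tested cytokine receptors 13 were stromal-high, among them the shared signal transducer Il6st at 768 to 809 against 53.1 to 73.7 CPM (-3.60 ± 0.11). The 5 goblet-high receptors were Il13ra1 (2.08 ± 0.20), the interleukin 17 receptor chains Il17rc (1.58 ± 0.11) and Il17re (3.47 ± 0.27), Il22ra1 (4.08 ± 0.14) and Ifngr2 (1.57 ± 0.10).

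Of 11 tested chemokines 4 were goblet-high and 5 stromal-high, beside 24.7% and 17.9% of all tested genes. A further 10 of the 30 members had stromal rows only. Ccl6 was 1052, 1336, 1149 and 789 CPM in goblet and 3.79, 14.8, 19.3 and 9.84 CPM in stromal cells (6.55 ± 0.42). Ccl9 (3.47 ± 0.38), Ccl28 (5.15 ± 0.37) and Cx3cl1 (2.45 ± 0.19) were the other goblet-high chemokines. CCL28 attracts IgA plasma cells through its receptor CCR10, and Ccr10 was stromal-high at 9.48, 16.8, 18.9 and 26.5 against 0.283 to 1.06 CPM (-3.49 ± 0.29). In the same stromal libraries Igha was 5860, 9318, 11424 and 15436 CPM, and both genes were lowest in GWTT Proximal 1 and highest in GWTT Distal 2. Stromal cells had Cxcl12 at 1089 to 1718 CPM, Ccl11 at 324 to 639 and Cxcl1 at 135 to 226. Cxcl12, the ligand of CXCR4, was at least 2237-fold higher and the eotaxin gene Ccl11 at least 532-fold. All 5 tested chemokine receptors were stromal-high, including the scavenging receptors Ackr3 (247 to 337 CPM, -6.91 ± 0.18) and Ackr4 (-6.39 ± 0.65). Of the prostaglandin genes, Ptgs2, which encodes COX-2, was 156 to 478 CPM in stromal cells and at least 457-fold higher, the synthase Ptges was stromal-high (-5.48 ± 0.35) and Ptges2 goblet-high (1.33 ± 0.11).

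The difference between cell types itself changed with colon segment in 145 of 12444 genes (1.17%) in limma's interaction test at an adjusted p under 0.05 and a log2 size of at least 1. A positive value is a goblet minus stromal difference that was greater in proximal colon. With 2 libraries per segment and cell type this count was unstable: it was 0 without GWTT Distal 1, 6 without GWTT Distal 2, 10 without GWTM2 Proximal 2, 34 without GWTM2 Proximal 1, 74 without GWTT Proximal 1 and 227 without GWTM2 Distal 1. The most positive values were those of Osr2 (6.75 ± 0.53), Tbx3 (6.73 ± 0.39) and Pakap (5.26 ± 0.31), and the most negative those of Hoxb13 (-5.39 ± 0.49), Slpi (-5.08 ± 0.59) and Tgm3 (-4.66 ± 0.68). The transcription factor genes Osr2 and Tbx3 were 102 and 157 and 26.2 and 36.0 CPM in proximal goblet cells and 0.17 and 0.813 and 0.34 and 0.75 CPM in distal goblet cells. Their interactions also take in the stromal values, which are not listed for either gene. Hoxb13, a posterior Hox gene, was 1.97 and 0.441 CPM in proximal and 181 and 192 CPM in distal goblet cells, with 0 to 1.61 CPM in stromal cells.

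Of 331 list members tested for the interaction 13 were called, beside 1.17% of all 12444 genes. Of these, Bmp7, Lama5, Gcnt1, St3gal6, Cd44, Hapln1, Col18a1 and Runx1 were named after their values were seen, and the naming rule already held Ackr4, Dll1, Lamb1, Plod1 and Tnfsf13b. Bmp7 was 25.0, 31.6, 6.86 and 8.88 CPM in goblet cells and 32.4, 28.1, 142 and 143 CPM in stromal cells (3.92 ± 0.24, limma adjusted p = 0.00346). Its values in the 2 cell types overlapped in proximal colon and lay apart in distal colon. Ackr4, a scavenger of homeostatic chemokines, was 615 and 364 CPM in proximal and 53.3 and 61.7 in distal stromal cells (-3.51 ± 0.42), and Tnfsf13b, which encodes the B cell survival factor BAFF, was 30.6 and 34.4 and 216 and 223 CPM (2.93 ± 0.45). The laminin alpha 5 chain Lama5 was 23.5, 27.8, 147 and 132 CPM in stromal cells (2.32 ± 0.24), and the hyaluronan link protein Hapln1 18.5, 13.8, 77.6 and 102 CPM (2.63 ± 0.40). The Notch ligand Dll1 was 9.36, 14.2, 60.2 and 73.0 CPM in stromal and 23.2 to 31.5 CPM in goblet cells (2.21 ± 0.30).

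In Gcnt1, St3gal6 and Cd44 the values of goblet cells differed between segments. The core 2 enzyme Gcnt1 was 9.43, 3.72, 65.0 and 43.9 CPM in goblet cells (-3.50 ± 0.53), and the sialyltransferase St3gal6 72.1, 79.5, 204 and 242 CPM (-1.88 ± 0.29), both higher in each distal than in each proximal library. The hyaluronan receptor Cd44 was 167, 148, 60.5 and 46.5 CPM in goblet cells (2.06 ± 0.20), higher in each proximal library. Lamb1 (3.10 ± 0.29), the collagen lysyl hydroxylase Plod1 (1.24 ± 0.20), Col18a1 (1.18 ± 0.19) and the transcription factor gene Runx1 (1.14 ± 0.17) were the remaining members. Runx1 was 25.6 to 31.7 CPM in goblet cells and 23.1, 22.4, 46.5 and 42.6 CPM in stromal cells, higher in each distal stromal library.

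**Figure D5:**
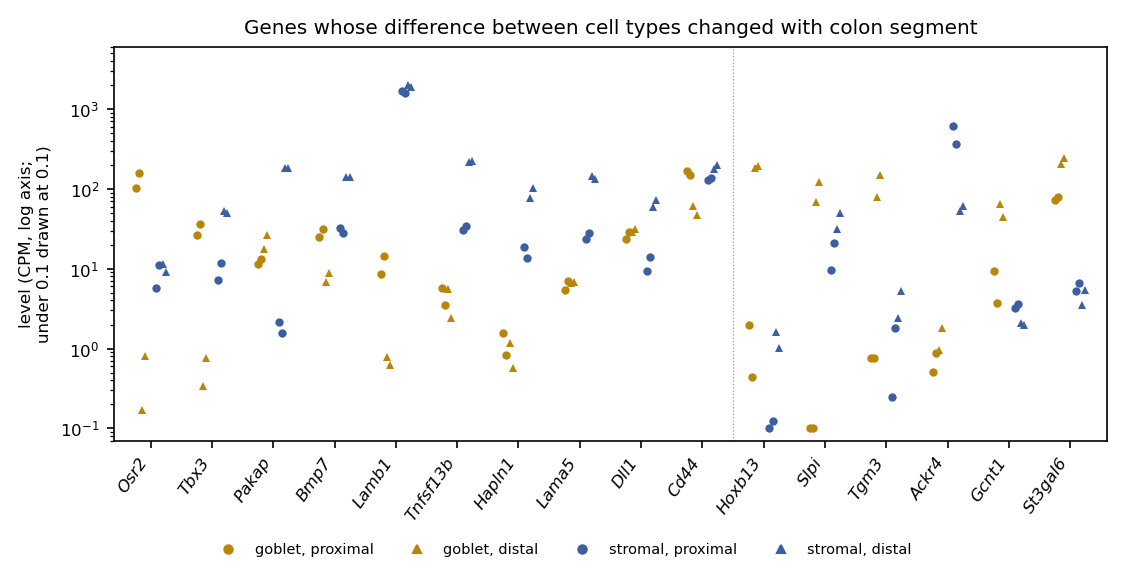
Level (CPM, log axis, values under 0.1 drawn at 0.1) of genes with a called interaction of cell type and colon segment, 1 point per library, gold for goblet and blue for stromal cells, circles for proximal and triangles for distal colon, with positive interactions left of the dotted line and negative ones right of it. Osr2 and Tbx3 lie under 1 CPM in distal goblet cells, and Bmp7 lies at 142 and 143 CPM in distal stromal cells.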

How the data were processed

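RNA was taken from sorted cells, libraries were made with a SMARTER mRNA-seq kit, and, per the submitters' notes and the study's methods, the authors mapped reads uniquely to mm10 with STAR 2.5.3 and normalized gene counts with DESeq2 1.28.1. The deposited values are a signal: gene counts divided by size factors, 1 table per segment and cell type, each shared with Alk3-deleted libraries. Whole reads were recovered from 100% of values (tolerance 0.1 read). Tables leave out low rows, and 17 to 19 rows per table whose names had become dates were not used. The tables of the same control libraries with Smad4-deleted libraries served as an alternative; in their goblet columns 4 unnamed rows hold 20.9% to 28.2% of the values and were left out. Only the control columns of each table entered the comparison, and the authors' fold change and p-value columns were not used.

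Each library was scaled to CPM, a sum of 1000000 over its table, genes with a mean of at least 1 CPM and a row in all 4 tables were kept, and log2(value + 1) was fitted by limma 3.58.1 (trend) in R 4.3.3 with cell type and segment, or with their interaction. Benjamini-Hochberg adjusted p under 0.05 and a log2 size of at least 1 made a call. In simulated data on 12444 genes, 82%, 96%, 100% and 96% of genes changed by 1.5, 2, 3 and 4 (log2) were called, and 0.0245% of unchanged genes. Only 50 genes were changed at each size, in either direction, and libraries were drawn independently. The simulation therefore does not cover a scaling shift between cell types or libraries that share a mouse. Alternatives were edgeR 4.0.16, DESeq2 1.42.0, other scalings, pseudocounts and filters, missing rows as 0, blocks, single segments and each library left out. A sex block and missing rows at their bound were chosen after seeing the data. Named genes were 8 identity and target genes, the 12 largest differences each way, the best expressed members of each list and those called against their list, and the 3 largest interactions each way; Jchain and 8 members called in the interaction were added after their values were seen, and other genes that are named stand in counts, marker sums or per-length levels. Members and lists were chosen with earlier results of these data known. Standard errors (±) come from the spread between libraries, and floors of 3 reads cover counting error only. A gene that the naming rule chose is not reported here.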

Additional observations from a re-analysis of the deposited data

Results flagged for a closer look

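The difference between goblet and stromal cells changed with colon segment, by limma's interaction test, in 145 genes. With each library left out in turn the count ran from 0 to 227, so single genes depend on single libraries. Among transcription factors the interaction was 6.75 for Osr2, 6.73 for Tbx3, 1.14 for Runx1 and -5.39 for Hoxb13. Among ligands and a scavenging receptor it was 3.92 for Bmp7, 2.93 for Tnfsf13b, 2.21 for Dll1 and -3.51 for Ackr4. Matrix genes and their receptor gave 3.10 for Lamb1, 2.63 for Hapln1, 2.32 for Lama5, 2.06 for Cd44, 1.24 for Plod1 and 1.18 for Col18a1. Glycosyltransferases gave -3.50 for Gcnt1 and -1.88 for St3gal6. The remaining values were 5.26 for Pakap, -5.08 for Slpi, a protease inhibitor, and -4.66 for Tgm3, a transglutaminase.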

How the results depend on the processing

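The number of genes called between cell types stayed between 4184 and 7280, and 78.9% to 100% of the calls were shared in direction under the alternatives run. Missing rows taken as 0 raised the stromal calls from 2230 to 3875, and missing rows at their bound, chosen after seeing the data, to 3632. The interaction count of 145 was 75 with a pseudocount of 0.1, 452 with missing rows as 0, 84 by edgeR, 490 by DESeq2, 93 with a sex block (chosen after seeing the data), 93 with the control columns of the Smad4 tables, 731 at an unadjusted p and 0 to 227 when 1 library was left out; the cause was not tested. Of 105 called genes with a printed fold change 96 kept their call and direction under every alternative run in which they were tested. Genes that a run left out, by its filter or for lack of a row, were not counted as lost. With the control columns of the Smad4 tables, for example, 1 fibrillar collagen was tested and 0 called, against 2 and 1 in the main fit. Of 19 interaction genes 0 kept their call, which was fixed by the run without GWTT Distal 1, where no gene was called. None of the 19 signs turned. Klf4 turned to -0.0265 under upper-quartile scaling and -0.0854 in proximal colon alone. Same-numbered libraries of the 2 cell types came from different mouse lines and shared only a number (r of their deviations 0.0177 proximal, 0.0556 distal). A replicate block gave 5311 calls and 118 interaction calls. GWTT Proximal 1 and GWTT Distal 1 differed in sex by their reads and so came from different mice. Whether the other proximal and distal libraries of the same number and line shared a mouse was not tested. Depth of 15879171 to 19831119 reads puts 3 reads at 0.151 CPM in the deepest library, and genes left out of the tables were not analysed below their bounds.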
